A study of Mus musculus with 34 samples.

Results

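The 4 genes Pou5f1, Pou3f1, Utf1 and Foxd3 encode nuclear proteins of the epiblast, the cell layer of the early mouse embryo from which all fetal tissue arises. They were chosen by gene symbol, as 4 of the 37145 genes in the tables of cultured cells and 4 of the 46785 genes in the tables of embryo sections. All 4 were found in each of the 30 libraries used here. Each value is in FPKM, the fragments mapped to a gene divided by transcript length and by the size of the library.

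The study examined Evx1as, a long non-coding RNA transcribed antisense to the homeobox gene Evx1, in embryonic patterning. The cultures were 3 of a line labelled 4x polyA KI and 3 of the wild-type line CJ9, embryonic stem cells of strain 129S1/SVImJ at day 4 after withdrawal of leukemia inhibitory factor (LIF), a cytokine that holds such cells undifferentiated. The labels do not give the site of the knock-in, and it cannot be told apart from any other difference between the lines. Nothing states that replicate cultures were independent, so p-values over cultures measure only the spread between these samples. The embryo libraries were laser-captured pieces of cryosections of embryos at embryonic day 7, of strain C57/B6, that were either Evx1as-/- or Evx1as+/-. Every section therefore came from an embryo carrying at least 1 mutant allele, and no wild-type embryo was included. There were 5 Evx1as-/- and 6 Evx1as+/- primitive streak sections, 5 Evx1as-/- and 3 Evx1as+/- mesoderm sections, and 1 Evx1as-/- and 1 Evx1as+/- anterior epiblast library. Streak and mesoderm sections carry odd layer numbers between 1 and 11, whose direction is not given. Another 3 sections were left aside, since their titles point to one region and their cell type labels to another. Which embryo a section came from is not given. Sections of 1 genotype may share an embryo, so all p-values over sections are too small.

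Pou5f1 encodes OCT4, the POU-domain transcription factor without which the inner cell mass and epiblast do not keep their pluripotent state. Its expression persists through the epiblast at gastrulation, the stage at which cells pass through the primitive streak to form mesoderm and endoderm. Pou3f1 encodes OCT6, a related POU factor of the primed epiblast that favours neural fates when streak fates are not taken. Utf1 encodes a chromatin-bound protein of pluripotent cells whose enhancer is a known target of OCT4 with SOX2. Foxd3 encodes a forkhead factor needed to maintain the epiblast and, later, the neural crest. The streak itself is marked by T (brachyury), Mixl1 and Eomes, and the anterior epiblast, which lies opposite to it, is fated mainly to neural and surface ectoderm.

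In the section tables, whose positions match mm10, Pou5f1 (ENSMUSG00000024406.16) lies at chr17:35506018-35510772. Utf1 (ENSMUSG00000047751.9) lies at chr7:139943789-139945112. Pou3f1 (ENSMUSG00000090125.3) and Foxd3 (ENSMUSG00000067261.4) share a chromosome, at chr4:124656807-124660655 and chr4:99656299-99658622. The culture tables use positions of an older build and list Pou3f1 under 2 overlapping identifiers, whose values were added. The predicted gene Gm19553 overlaps Pou5f1 and was listed above 0 in 13 of 24 sections, at up to 8.39 FPKM, so a part of either value may belong to the other.

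The start regions of Pou5f1, Utf1 and Foxd3 are shown because all 3 genes were higher in the knock-in cultures described below. Pou3f1 was higher there too, but the reference used held no start region for it. Each sequence is 300 bases of GRCm38.p6 from RefSeq, on the + strand, ending shortly after the annotated start. They lie at chr17:35505782-35506081 (the upstream of 2 annotated starts of Pou5f1), chr7:139943606-139943905 (Utf1) and chr4:99656049-99656348 (Foxd3). Capitals mark matches, on either strand, to motifs that were picked after reading the sequences. These are the GC box GGGCGG, the nuclear receptor half-site AGGTCA and the cAMP response element TGACGTCA.
Pou5f1: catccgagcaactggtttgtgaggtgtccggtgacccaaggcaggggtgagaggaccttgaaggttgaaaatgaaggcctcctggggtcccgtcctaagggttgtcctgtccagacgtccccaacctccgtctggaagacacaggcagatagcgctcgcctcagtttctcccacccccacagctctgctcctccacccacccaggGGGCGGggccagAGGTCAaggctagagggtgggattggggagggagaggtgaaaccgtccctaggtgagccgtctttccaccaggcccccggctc
Utf1: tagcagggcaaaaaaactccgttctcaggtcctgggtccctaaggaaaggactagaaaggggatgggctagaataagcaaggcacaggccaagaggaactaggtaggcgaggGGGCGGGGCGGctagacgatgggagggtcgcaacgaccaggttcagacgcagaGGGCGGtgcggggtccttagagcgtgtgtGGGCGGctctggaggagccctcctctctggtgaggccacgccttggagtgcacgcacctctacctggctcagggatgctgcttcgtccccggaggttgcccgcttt
Foxd3: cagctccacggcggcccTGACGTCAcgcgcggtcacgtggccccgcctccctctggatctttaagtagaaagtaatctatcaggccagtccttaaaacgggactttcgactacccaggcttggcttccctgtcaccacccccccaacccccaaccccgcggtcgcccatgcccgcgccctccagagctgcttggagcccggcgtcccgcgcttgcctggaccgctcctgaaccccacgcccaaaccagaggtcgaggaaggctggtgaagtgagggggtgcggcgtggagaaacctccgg

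The Pou5f1 window held 1 GC box at -45 and 1 half-site at -33 relative to the annotated start. Half-sites of this kind are bound by nuclear receptors such as LRH-1 and GCNF, both known regulators of Pou5f1. The Utf1 window held 4 GC boxes, at -138, -133, -85 and -56, of which the first pair overlap. The Foxd3 window held 1 cAMP response element at -233. Of 32851 RefSeq start regions of the same length, 35.7% held GGGCGG, 16.3% AGGTCA and 1.79% TGACGTCA. The octamer ATGCAAAT, the classic sequence bound by POU proteins, was in none of the 3 windows and in 1.74% of all. CpG dinucleotides numbered 11 in the Pou5f1 window, 17 in Utf1 and 25 in Foxd3, against a median of 7 over all start regions.

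The libraries differ in ways that touch every value. The sum of FPKM was 502990 to 582184 per culture and 132929 to 376860 per section, and 12758 to 13073 genes reached 1 FPKM in a culture, against 6806 to 10959 in a section. A single non-coding RNA, Yam1, took 4.89% to 22.2% of the FPKM of an Evx1as-/- section (median 7.95%) and 1.07% to 38.3% of an Evx1as+/- section (median 15.2%). The median number of genes at 1 FPKM was 9503 in Evx1as-/- and 8283 in Evx1as+/- sections. Mitochondrially encoded genes took 2.03% to 3.21% in the 12 Evx1as-/- sections and 3.38% to 5.53% in the 12 Evx1as+/- sections. The tables hold no read counts, so sequencing depth is unknown. Evx1as, listed as 5730457N03Rik, was at 0.0947 ± 0.0370 FPKM in knock-in and 5.26 ± 1.14 FPKM in wild-type cultures (SD, n = 3 each). It was listed at 0 in 5 of 5 Evx1as-/- mesoderm sections and reached at most 0.159 FPKM in Evx1as-/- streak, against 0 to 4.57 FPKM in Evx1as+/- streak. T marked the regions as labelled, with 50.8 to 297 FPKM in streak, 5.18 to 22.2 FPKM in mesoderm and 0.572 to 3.62 FPKM in anterior epiblast.

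**Figure D1:**
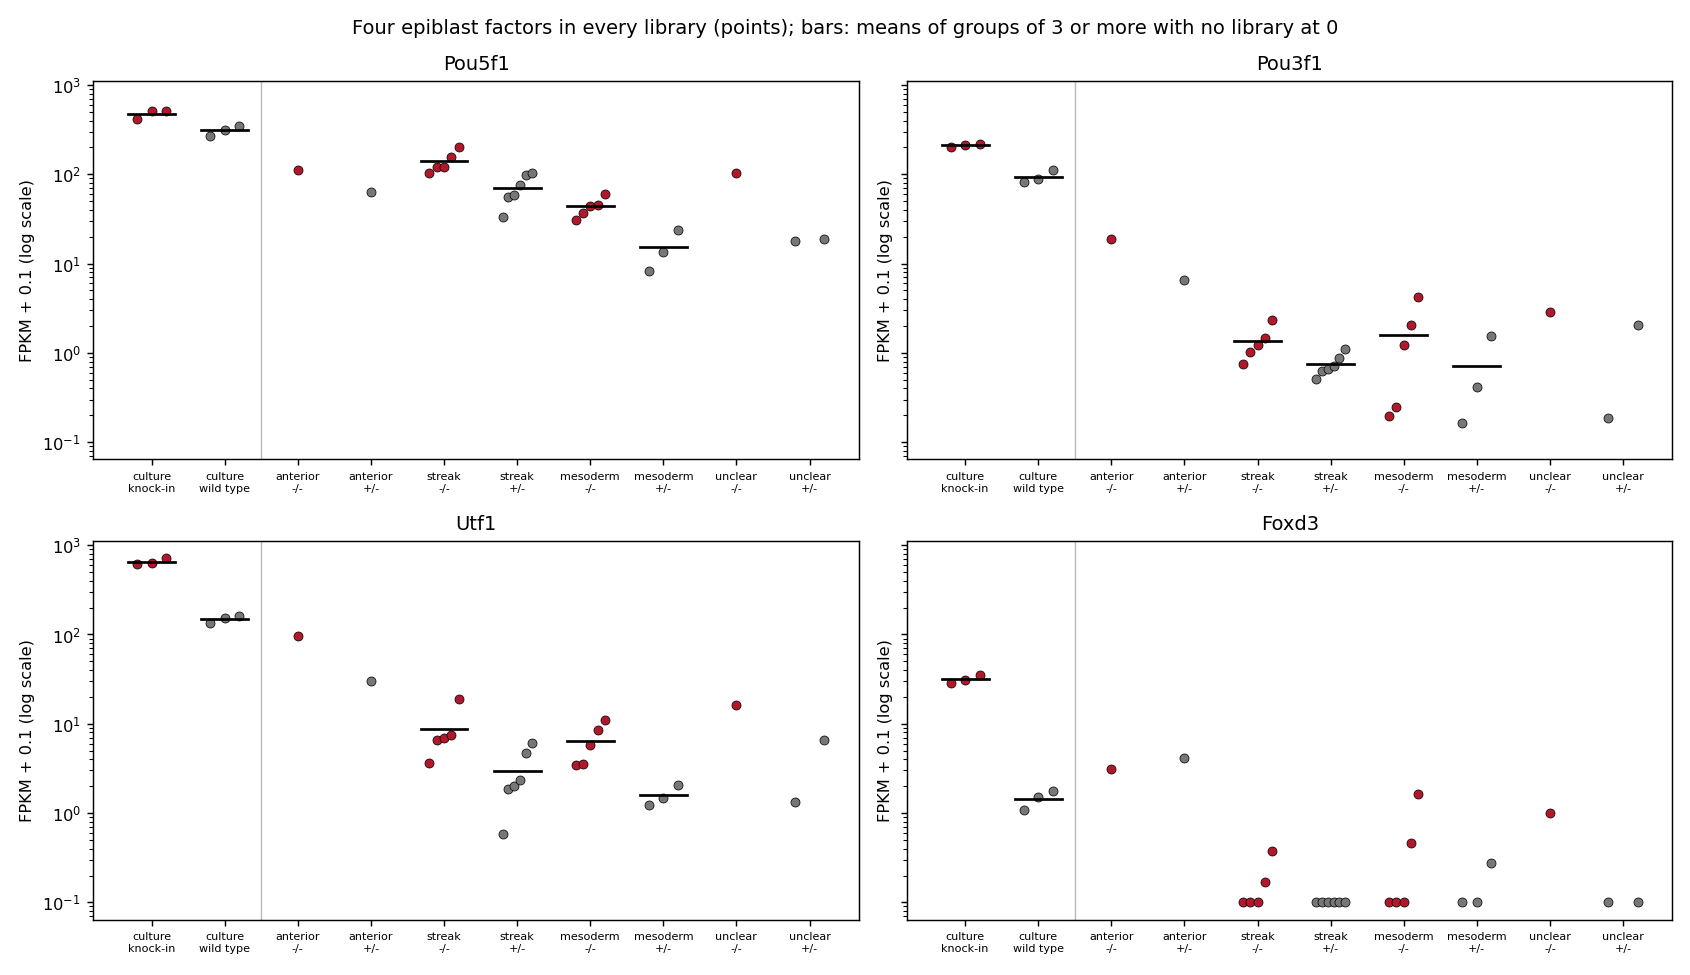
FPKM + 0.1 on a log axis for each gene, with 1 point per library, knock-in or Evx1as-/- in red and left of wild type or Evx1as+/- in grey, and a bar at the mean of groups of 3 or more with no library listed at 0. The "unclear" columns are the 3 sections with conflicting labels, and points at 0.1 are libraries listed at 0. All 4 genes stand higher in knock-in than in wild-type cultures, and Pou3f1, Utf1 and Foxd3 stand higher in anterior epiblast than in streak or mesoderm.

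In culture, the first question is how the 4 factors differ between knock-in and wild-type cells leaving the pluripotent state. All 4 were higher in the knock-in cultures, by very different amounts, and no knock-in library overlapped a wild-type one. Foxd3 differed most, at 23.4 times the wild-type mean, followed by Utf1 at 4.41 times, Pou3f1 at 2.25 times and Pou5f1 at 1.53 times. In bulk RNA, more cells expressing a gene and more RNA per cell cannot be told apart, here or in any comparison below.

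Foxd3 was at 35.2, 30.96 and 28.4 FPKM in the knock-in cultures, against 0.977, 1.65 and 1.40 FPKM in wild type. The intervals deposited with these values run from 24.9 to 38.9 FPKM over the knock-in and from 0.437 to 2.54 FPKM over the wild-type cultures, far apart. The difference was 3.80 ± 0.17 (SE) on the log2(FPKM + 1) scale (limma, Benjamini-Hochberg-adjusted p = 6.74e-05), the 21st largest in size of 13133 genes tested. With a pseudocount of 0.1 in place of 1 it was 4.48.

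Utf1 was at 710, 633 and 621 FPKM in knock-in cultures, against 133, 160.5 and 152 FPKM in wild type. Its level thus exceeded that of Pou5f1 in every knock-in culture and lay below it in every wild-type culture. The log2 difference was 2.14 ± 0.11 (adjusted p = 7.57e-05).

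Pou3f1 was at 218, 203 and 214 FPKM in knock-in cultures, against 81.6, 88.8 and 111 FPKM in wild type, a log2 difference of 1.18 ± 0.13 (adjusted p = 0.000882). Pou5f1 was at 511, 505 and 416 FPKM in knock-in cultures, against 271, 315 and 350 FPKM in wild type, a log2 difference of 0.61 ± 0.13 (adjusted p = 0.0116). Its groups do not overlap, but the gap between the lowest knock-in and the highest wild-type culture is narrow. All 4 factors passed the threshold of 0.05 as higher. Among all genes tested 16.2% did so, and 24.4% were higher without overlap between the groups. Among the 3 libraries tagged with 1 sequencing lane (2 knock-in, 1 wild type), Pou5f1 had 0.54 and did not pass (adjusted p = 0.165), while Pou3f1 had 1.22, Utf1 1.96 and Foxd3 3.53. There the spread comes from the knock-in pair alone, and the single wild-type library is assumed to vary like it.

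Relative to Pou5f1 in the same library, the other 3 factors were all higher in knock-in cultures. Utf1 stood at 125.51% to 149% of the Pou5f1 level in knock-in and 43.4% to 51.0% in wild-type cultures. Pou3f1 stood at 40.3% to 51.5% in knock-in and 28.2% to 31.8% in wild type. Foxd3 stood at 6.14% to 6.87% in knock-in and 0.361% to 0.525% in wild type. The 4 factors were thus raised unequally, and none of these 3 ratios overlapped between the lines.

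Other genes of the epiblast were also raised in the knock-in cultures. Of 16 epiblast and pluripotency genes, 11 were higher, 1 was lower and 4 did not pass, with a median log2 difference of 1.08, against 0.02 over all genes tested. The largest were Dnmt3b (2.72), a de novo DNA methyltransferase of primed cells, Otx2 (2.22), a homeobox regulator of the primed state, and Dnmt3a (1.80). Sox2, the partner of OCT4 on the Utf1 enhancer, was at 84.0 ± 3.16 FPKM in knock-in and 33.9 ± 5.73 FPKM in wild type and rose by 1.30. The member that fell was Cdh1, the epithelial cadherin (-0.92). Nanog, a pluripotency homeobox gene, had a log2 difference of -0.26 and did not pass.

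Genes of the naive, pre-implantation state were mixed. Of 12 chosen, of which Tfcp2l1 had no row in the culture tables, 8 passed the filter on low values. Of these 5 were higher and 2 lower, or 4 and 3 after scaling by median ratios. Dppa5a, an RNA-binding protein of pluripotent cells, rose by 3.18, Fgf4, the growth factor of the early epiblast, rose by 2.19, and Tbx3, a T-box gene, fell by 3.68. The known regulators of Pou5f1 among nuclear receptors were mostly low. Nr6a1, which encodes GCNF, the repressor of Pou5f1 during differentiation, was at 30.7 ± 2.76 FPKM in knock-in and 22.5 ± 3.47 FPKM in wild type (log2 difference 0.44, adjusted p = 0.0552). Nr5a2, which encodes LRH-1, was at 1.05 ± 0.173 FPKM in knock-in and 0.353 ± 0.197 FPKM in wild type, and Nr2f1 and Nr2f2 stayed under 0.31 FPKM in every culture.

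The relatives of the 4 factors did not share their levels. Of 13 other POU genes, of which Pou5f2 had no row in the culture tables, 4 passed the filter and 0 were called, against 4256 genes called of 13133, or 32.4%. By limma, 1 of the 4 reached an unadjusted p under 0.05, Pou2f2, which encodes OCT2 (log2 difference 0.88, adjusted p = 0.107). The FOXD genes Foxd1, Foxd2 and Foxd4 were all below 0.29 FPKM in every culture and none passed the filter. Of the genes of later fates to which Pou3f1 and Foxd3 are linked, those listed in the culture tables were low. Of 5 neuroectoderm genes only Zic1 passed the filter, and of 6 neural crest genes 2 passed it and 1, Sox10, rose. Sox1 of the neuroectoderm list and Tfap2a of the neural crest list had no row in the culture tables, so their levels there are unknown. Zic1 passed the filter only through its level in knock-in cultures, so nothing is read from its call. Zic1, of the neural plate, was at 3.40 ± 1.63 FPKM in knock-in and 0.0886 ± 0.0313 FPKM in wild type, and Pax6 was at 0.948 ± 0.591 FPKM in knock-in and 0.322 ± 0.0412 FPKM in wild type. Sox10, of the neural crest, was at 4.13 ± 0.461 FPKM in knock-in and 1.41 ± 0.185 FPKM in wild type.

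Markers of other cell types moved in the same comparison. Of 12 streak and mesoderm genes, 10 passed the filter, 0 were higher and 6 lower, with T at 10.7 ± 5.13 FPKM in knock-in and 155 ± 39.7 FPKM in wild type. The summed level of the 12 genes was 128 to 136 FPKM in knock-in and 282 to 487 FPKM in wild-type cultures. The 6 trophoblast markers summed to 3.99 to 5.57 FPKM in knock-in and 23.9 to 65.7 FPKM in wild type. Most of that gap was Gata3, at a mean of 0.527 FPKM in knock-in and 27.9 FPKM in wild type, and Krt7, at 1.18 and 17.4 FPKM. Ascl2 went the other way, at 2.71 to 2.90 FPKM in knock-in and 1.32 to 2.36 FPKM in wild type, and did not pass. Tpbpa was at 0 in all cultures, and Elf5 was at 0 in knock-in and at most 0.287 FPKM in wild type. The 6 feeder fibroblast markers summed to 18.4 to 21.3 FPKM in knock-in and 7.14 to 16.2 FPKM in wild type, but the 2 that passed the filter went opposite ways. Thy1, a surface glycoprotein, rose by 2.15 and Col1a1, a collagen chain, fell by 1.48. Postn and Lum were at 0 in all knock-in cultures and at most 0.288 and 0.382 FPKM in wild type. Of 12 visceral endoderm markers 3 passed the filter and 2 fell, the endocytic receptor Lrp2 (-1.87) and its adaptor Dab2 (-1.05). Ttr and Afp were at 0 in all cultures, and Rhox5 had no row in the culture tables. The summed level of that list, 283 to 362 FPKM in knock-in and 244 to 306 FPKM in wild type, is mostly Apoe, which did not pass (0.36). The 4 germ cell genes in the culture tables summed to 12.3 to 15.5 FPKM in knock-in and 17.2 to 24.6 FPKM in wild type, with 1 higher and 2 lower. Immediate early and stress genes summed to 95.0 to 105 FPKM in knock-in and 138 to 157 FPKM in wild type. The part of these shifts in the levels of the 4 factors was not tested.

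**Figure D2:**
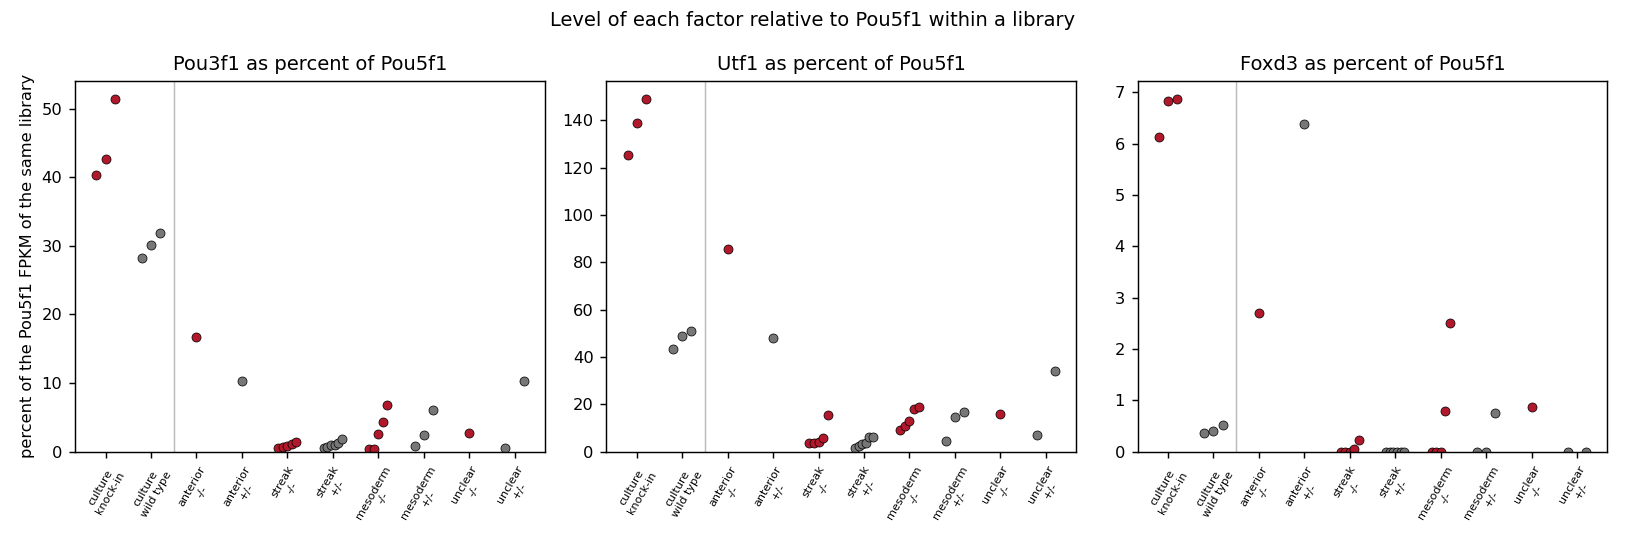
Pou3f1, Utf1 and Foxd3 as a percent of the Pou5f1 FPKM of the same library, with 1 point per library on linear axes that start at 0, and knock-in or Evx1as-/- left of wild type or Evx1as+/-. Among the cultures, Utf1 exceeds 100% of Pou5f1 in the knock-in ones alone. Among the sections, Utf1 stays at or under 18.8% in those used as streak or mesoderm. An Evx1as+/- section with conflicting labels, among the "unclear" points, stands at 34.1%.

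In the embryo, Pou5f1 was the most widespread of the 4, at 8.21 FPKM or more in each of 24 sections. Utf1 and Pou3f1 were listed above 0 in every section too, but Pou3f1 was under 5 FPKM outside the anterior epiblast. Foxd3 was listed at 0 in 16 of 24 sections. Levels are not set against those in culture, because the tables were made separately and by different library protocols.

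The group levels of Pou5f1 ran from 140 ± 38.4 FPKM in Evx1as-/- streak (SD, n = 5) through 112 FPKM in the single Evx1as-/- anterior library and 70.5 ± 27.01 FPKM in Evx1as+/- streak (n = 6) to 62.7 FPKM in the single Evx1as+/- anterior library. Below these came 43.6 ± 11.2 FPKM in Evx1as-/- mesoderm (n = 5) and 15.2 ± 8.05 FPKM in Evx1as+/- mesoderm (n = 3). Each anterior library fell within the range of the streak sections of its genotype. Utf1 had another order, with 95.6 FPKM in Evx1as-/- and 30.04 FPKM in Evx1as+/- anterior epiblast. It then dropped to 8.57 ± 5.82 FPKM in Evx1as-/- streak, 6.37 ± 3.31 in Evx1as-/- mesoderm, 2.82 ± 2.04 in Evx1as+/- streak and 1.48 ± 0.427 in Evx1as+/- mesoderm, where each group overlapped the next.

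The anterior epiblast was compared with the streak over both genotypes, 2 libraries against 11. Pou3f1 and Utf1 were higher there by an order of magnitude, while Pou5f1 was not. Pou3f1 was at 18.7 FPKM (deposited interval 17.0 to 20.5) in the Evx1as-/- and 6.46 FPKM (4.95 to 7.97) in the Evx1as+/- anterior library. Streak sections had 0.408 to 2.21 FPKM, with a median of 0.769, so no section overlapped. The difference was 2.67 ± 0.37 on the log2(FPKM + 1) scale (adjusted p = 0.00254), and the means stood 13.6 times apart. Pou3f1 averaged 0.925 FPKM in streak, under the filter of 1 FPKM, and entered this test only through its level in the anterior libraries.

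Utf1 was at 95.6 FPKM (88.9 to 102) in the Evx1as-/- and 30.04 FPKM (24.0 to 36.0) in the Evx1as+/- anterior library, against 0.482 to 18.7 FPKM in streak, with a median of 4.60. Again no section overlapped, and the log2 difference was 3.35 ± 0.53 (adjusted p = 0.00686). Utf1 passed as higher, which 0.101% of the 9854 genes tested did, while 0.304% passed as lower and 0.680% were higher without overlap. For Pou3f1, given its entry through the filter, nothing is read from these shares.

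Foxd3 was at 3.03 FPKM (2.18 to 3.87) in the Evx1as-/- and 4.00 FPKM (2.46 to 5.53) in the Evx1as+/- anterior library. In streak it was listed at 0 in 9 of 11 sections and at 0.0703 and 0.275 FPKM in the other two, both with deposited intervals that reach 0. It did not pass the filter on low values. Without that filter the log2 difference was 2.12 (adjusted p = 0.000105), and it did not pass when only streak layers 5 and 7 were used (2.08, adjusted p = 0.215). The anterior libraries were among the 3 sections of the 24 with at least 1 FPKM of Foxd3.

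Pou5f1 was at 112 FPKM in the Evx1as-/- and 62.7 FPKM in the Evx1as+/- anterior library, inside the streak range of 33.3 to 200.1 FPKM. The log2 difference was -0.18 ± 0.38 (adjusted p = 0.889), and 0.27 after scaling, so no direction can be given. Utf1 therefore stood at 85.6% of Pou5f1 in Evx1as-/- and 47.9% in Evx1as+/- anterior epiblast, against 1.45% to 15.5% over all streak sections. Pou3f1 stood at 16.7% in Evx1as-/- and 10.3% in Evx1as+/- anterior epiblast, against 0.550% to 1.83% in streak. On this within-library scale, which needs no normalization between libraries, the anterior libraries lay outside the streak range. These ratios use the same values of the same 2 libraries, so they describe the difference and add no separate support.

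Each anterior group is 1 library, assumed in the fit to vary like the streak. Without the Evx1as-/- anterior library, Pou3f1 (2.19, adjusted p = 0.0770) and Utf1 (3.20, adjusted p = 0.0986) no longer passed, and without the Evx1as+/- library Utf1 did not pass either (3.51, adjusted p = 0.241), while Pou3f1 did (3.16, adjusted p = 0.0369). With streak layers 5 and 7 alone, Pou3f1 had 2.53 (adjusted p = 0.0559). As Pou3f1 entered the test through its anterior level, none of its calls is read as support.

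The rest of the epiblast list did not share this pattern. Of 16 genes 14 passed the filter, with 1 higher in the anterior epiblast, 2 lower and 11 not past the test, and a median log2 difference of 0.00, against -0.35 over all genes. The 1 that rose was Sox2, at 14.5 FPKM in Evx1as-/- and 12.4 FPKM in Evx1as+/- anterior epiblast, against 0 to 3.39 FPKM in streak (log2 difference 2.94, adjusted p = 0.0127). Among those that were lower, Tdgf1, the NODAL co-receptor, fell by 4.68. Of 12 streak and mesoderm genes, 10 passed the filter and 4 were lower, or 5 after scaling. Among them T fell by 5.50 (adjusted p = 7.96e-07), Mixl1 fell by 5.63 and Eomes fell by 3.80. Markers of definitive neural tissue were near 0 in the anterior libraries, where the 5 neuroectoderm genes summed to 0.0526 FPKM in Evx1as-/- and 2.36 FPKM in Evx1as+/-, with Sox1, Pax6 and Zic1 at 0 in both. Visceral endoderm markers summed to 31.8 FPKM in Evx1as-/- and 39.9 FPKM in Evx1as+/- anterior epiblast, against 44.9 to 1534 FPKM in streak sections.

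The genotypes were compared within streak and within mesoderm, with layer as a covariate, and then over both regions. Pou5f1 and Utf1 were higher in Evx1as-/- sections in every layer that had both genotypes, 5 of 5 in streak and 3 of 3 in mesoderm. Pou3f1 was higher in the 5 streak pairs but in 1 of 3 mesoderm pairs. Foxd3 was listed at 0 in most sections of either genotype.

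In streak, Pou5f1 was at 120, 121, 155, 200.1 and 104 FPKM in Evx1as-/- layers 1, 5, 7, 9 and 11. In Evx1as+/- layers 1, 3, 5, 7, 9 and 11 it was at 75.3, 98.7, 103, 54.9, 58.3 and 33.3 FPKM. The genotypes did not overlap, by a margin of about 1 FPKM, as was true upward of 0.745% of the genes tested. The difference was smallest in layer 5 and largest in layers 7, 9 and 11. After scaling by median ratios the ranges overlapped, at 77.3 to 119 in Evx1as-/- and 39.6 to 91.9 in Evx1as+/- sections. The log2 difference was 1.07 ± 0.30 (adjusted p = 0.310) and did not pass. In the same test 0 of 9932 genes were called higher and 2 lower, 0.0201%. By limma, 1012 genes had an unadjusted p under 0.05, Pou5f1 and Utf1 among them.

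Utf1 in streak was at 18.7, 6.76, 6.54, 7.33 and 3.57 FPKM in Evx1as-/- layers 1, 5, 7, 9 and 11. Evx1as+/- layers 1, 3, 5, 7, 9 and 11 had 4.60, 5.96, 2.22, 1.93, 1.74 and 0.482 FPKM. The ranges overlap, but within a layer the Evx1as-/- section was higher by 1.27 to 1.81 on the log2 scale. The difference was 1.44 ± 0.28 (adjusted p = 0.160) and did not pass.

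Pou3f1 in streak was at 0.658 to 2.21 FPKM in Evx1as-/- and 0.408 to 1.00 FPKM in Evx1as+/- sections, and the deposited intervals of the 2 genotypes overlapped in 4 of 5 layers. It failed the filter, and without the filter the log2 difference was 0.44 (adjusted p = 0.717). Foxd3 was at 0.0703 and 0.275 FPKM in Evx1as-/- layers 1 and 5 and listed at 0 in layers 7, 9 and 11, and it was listed at 0 in all 6 Evx1as+/- streak sections.

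In mesoderm, Pou5f1 was at 60.7, 45.5, 44.0, 30.8 and 37.1 FPKM in Evx1as-/- layers 3, 5, 7, 9 and 11, against 24.0, 13.3 and 8.21 FPKM in Evx1as+/- layers 7, 9 and 11. Utf1 was at 10.9, 8.53, 5.65, 3.34 and 3.42 FPKM in the same Evx1as-/- layers, against 1.12, 1.95 and 1.36 FPKM in Evx1as+/- layers 7, 9 and 11. Neither gene overlapped between the genotypes, as was true upward of 8.60% of the 8695 genes tested there. After scaling by median ratios Pou5f1 overlapped narrowly, at 32.9 to 76.8 in Evx1as-/- and 12.8 to 33.1 in Evx1as+/- mesoderm, while Utf1 did not. The log2 differences were 1.27 ± 0.37 for Pou5f1 (adjusted p = 0.158) and 1.15 ± 0.35 for Utf1 (adjusted p = 0.178). Neither passed, and 17 genes did, all higher (0.196%). Adding the 2 Evx1as+/- sections with conflicting labels, whose titles name mesoderm, Pou5f1 passed (1.35, adjusted p = 0.0290). Those sections carry the lane tags L5 and L6, while the other mesoderm sections carry L2.

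Pou3f1 in mesoderm was at 4.16, 1.97, 1.14, 0.0941 and 0.151 FPKM in Evx1as-/- layers 3 to 11 and at 1.45, 0.312 and 0.0635 FPKM in Evx1as+/- layers 7, 9 and 11. At a matched layer the 2 genotypes were close, and the log2 difference was -0.10 ± 0.41 (adjusted p = 0.938), whose sign turned under several alternatives. Foxd3 was at 1.52 and 0.359 FPKM in Evx1as-/- layers 3 and 5, at 0.178 FPKM in Evx1as+/- layer 7, and at 0 in the other 5 mesoderm sections. The 2 layers with the most Foxd3 have no Evx1as+/- mesoderm counterpart.

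Over both regions, 10 Evx1as-/- against 9 Evx1as+/- sections, Pou5f1 and Utf1 passed the test as higher. Pou5f1 averaged 91.8 ± 57.4 FPKM in Evx1as-/- and 52.1 ± 35.2 FPKM in Evx1as+/- sections, and its log2 difference adjusted for region and layer was 1.21 ± 0.22 (adjusted p = 0.00896). Utf1 averaged 7.47 ± 4.61 FPKM in Evx1as-/- and 2.37 ± 1.76 FPKM in Evx1as+/- sections, with a log2 difference of 1.30 ± 0.19 (adjusted p = 0.00319). Pou3f1, at 1.38 ± 1.19 FPKM in Evx1as-/- and 0.635 ± 0.406 FPKM in Evx1as+/- sections, had 0.41 ± 0.25 and did not pass (adjusted p = 0.369). Foxd3 failed the filter (0.14 without it, adjusted p = 0.682).

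These calls stand against a general shift. The median gene of 9527 was 0.24 higher in Evx1as-/- sections on the log2 scale, 1.13% were called higher and 0.115% lower. After scaling, Pou5f1 had 0.91 (adjusted p = 0.0172) and Utf1 1.09 (adjusted p = 0.00619). Both were higher in all 8 layer-matched pairs, as were 3.20% of the genes tested. Before scaling, Pou5f1 was also among the 0.220% that did not overlap upward within either region, but after scaling it overlapped in both. Leaving out any 1 of the 19 sections kept both calls, with adjusted p of 0.00638 to 0.0292 for Pou5f1 and 0.00207 to 0.0116 for Utf1.

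**Figure D3:**
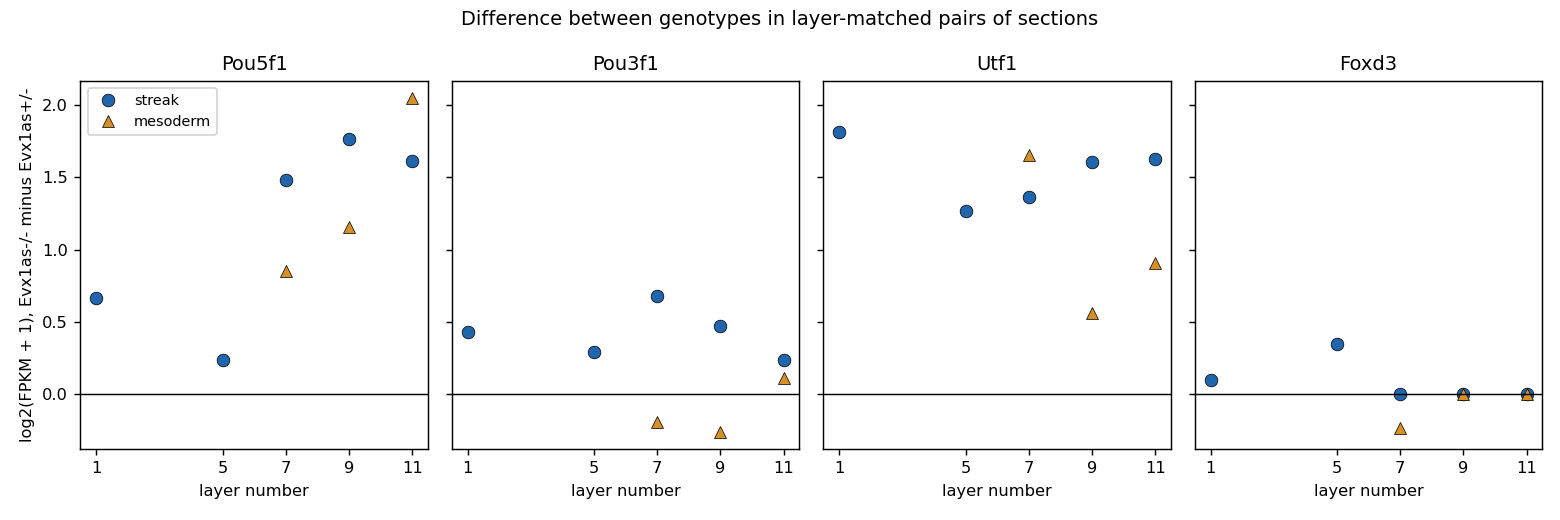
Evx1as-/- minus Evx1as+/- in log2(FPKM + 1) for sections of the same region and layer, plotted by layer number, with blue circles for streak, orange triangles for mesoderm and a line at 0. Pou5f1 and Utf1 lie above 0 in all 8 pairs, Pou3f1 in 6 of 8, and Foxd3 in 2.

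The difference between genotypes did not itself differ detectably between the regions. The interaction, mesoderm minus streak, was 0.30 ± 0.46 for Pou5f1, -0.20 ± 0.53 for Pou3f1 and -0.33 ± 0.40 for Utf1, each with an adjusted p of 0.999. limma called 0 genes, against 337 with an unadjusted p under 0.05. The standard errors leave room for sizeable differences either way.

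Other genes of the lists shared the direction in part. Of 16 epiblast genes 14 passed the filter over both regions, 2 were higher and 12 did not pass, with a median of 0.67. The 2 were Otx2 (1.75, adjusted p = 0.0252) and Tdgf1 (1.72, adjusted p = 0.0104). Of 12 naive genes 2 passed the filter, and Dppa5a rose by 1.84. Of 12 streak and mesoderm genes 11 passed the filter, with 3 higher and 1 lower, or 2 and 1 after scaling. Mixl1 rose by 2.02, a call lost after scaling (adjusted p = 0.0621), Eomes rose by 1.95 and Fgf8 by 1.88, while T fell by 1.22. Nr6a1, the repressor of Pou5f1, did not pass (0.22).

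Markers of other cells differed between the genotypes as well. Cdh1, the epithelial cadherin that cells lose on entering mesoderm, was at 1.14 to 6.64 FPKM in Evx1as-/- and 0.219 to 0.982 FPKM in Evx1as+/- mesoderm, without overlap. The same was true upward of 8.60% of the 8695 genes tested in mesoderm, where Evx1as-/- layers 3 and 5 have no Evx1as+/- counterpart. In streak Cdh1 was at 9.87 to 21.3 FPKM in Evx1as-/- and 11.2 to 30.8 FPKM in Evx1as+/- sections. The 12 visceral endoderm markers summed to 52.2 to 1534 FPKM in Evx1as-/- and 44.9 to 407 FPKM in Evx1as+/- sections of both regions, with medians of 178 FPKM in Evx1as-/- and 130 FPKM in Evx1as+/- ones. Apoe, an apolipoprotein, made up much of these sums, at 48.8 to 936 FPKM in Evx1as-/- and 19.7 to 340.1 FPKM in Evx1as+/- sections. Of the 12, 7 passed the filter and limma called 0, with a median log2 difference of 1.20, against 0.24 over all genes and 1.21 for Pou5f1. At an unadjusted p under 0.05 there were 3, Rhox5, Dab2 and Ttr, but the share over all genes is not given, so nothing is read from this count. In mesoderm alone the median of the 6 visceral endoderm markers past the filter was 1.93. Dab2 was there at 1.76 to 13.7 FPKM in Evx1as-/- and 0.0888 to 0.872 FPKM in Evx1as+/- sections, without overlap, to be read against the same 8.60%. Trophoblast and feeder fibroblast markers summed to at most 6.04 and 1.67 FPKM in any of these Evx1as-/- sections and 4.26 and 0.965 FPKM in Evx1as+/- ones. The part of Cdh1-positive or endoderm cells, and of the mitochondrial, Yam1 and gene detection differences given above, in the levels of Pou5f1 and Utf1 was not tested.

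**Figure D4:**
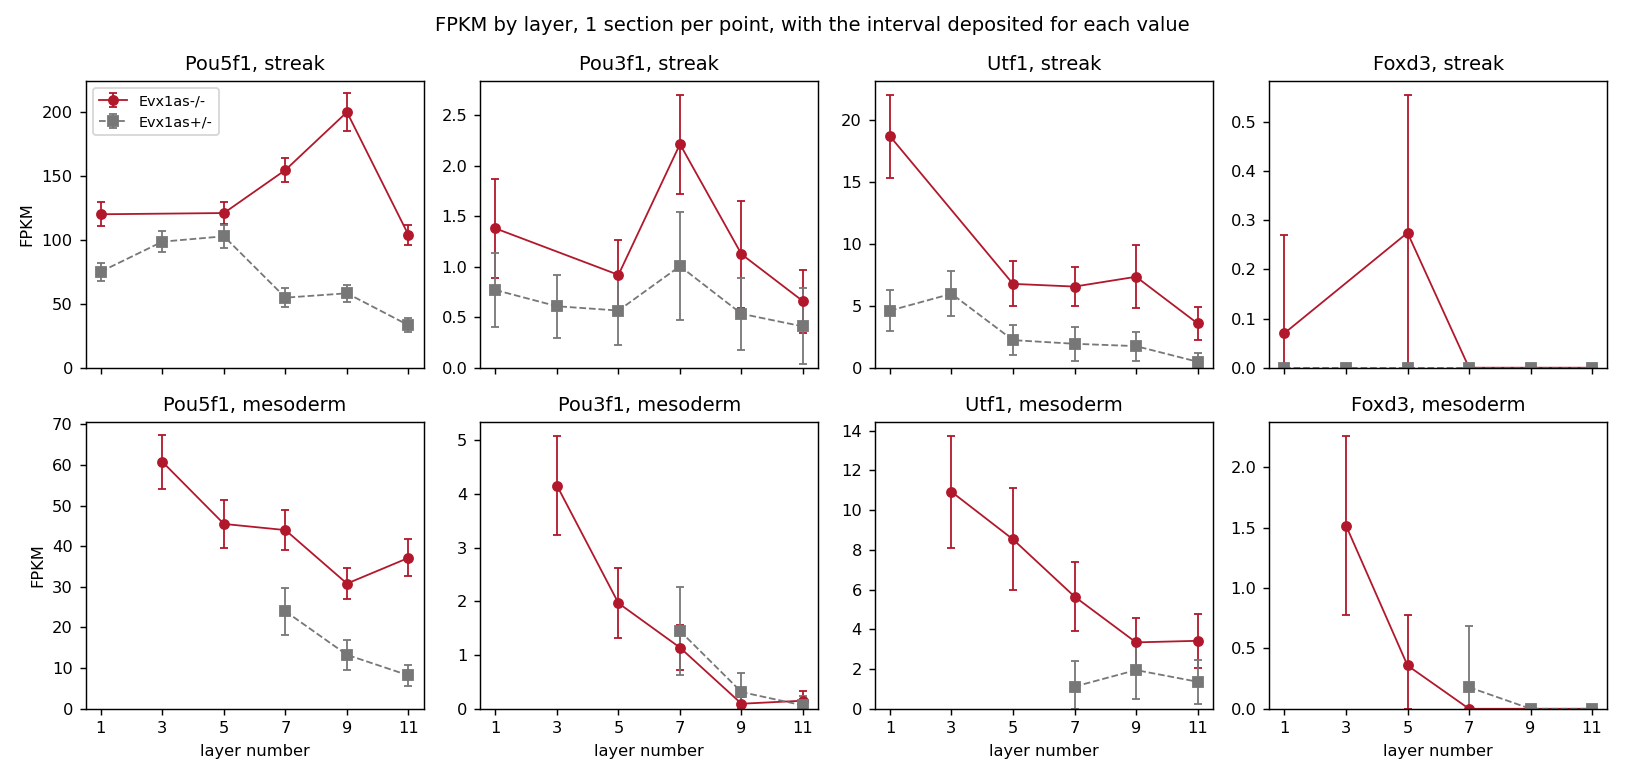
FPKM by layer number, with streak sections in the top row and mesoderm in the bottom row, Evx1as-/- as red circles and Evx1as+/- as grey squares, and bars for the interval deposited with each value. Axes differ between panels. Pou5f1 and Utf1 run higher in Evx1as-/- at every shared layer, and Pou3f1 and Foxd3 in mesoderm are highest at layer 3.

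Mesoderm was compared with streak within genotype and layer. Pou5f1 was lower in mesoderm in each of the 7 pairs, with log2 differences of -2.66 to -1.16. In Evx1as-/- sections the difference was -1.83 ± 0.26 (adjusted p = 0.0203), the 63rd largest in size of 9419 genes. Of those genes 0.573% were called lower, and the median gene was at -0.36. The call remained after scaling (-1.36, adjusted p = 0.0410) but was lost without any 1 of the 8 sections (adjusted p of 0.0633 to 0.211). In Evx1as+/- sections the difference was -1.70 ± 0.38 (adjusted p = 0.124) and did not pass, where 0.231% of 8672 genes were called lower. Whether the genotypes differ in this step is the interaction given above.

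Utf1 did not follow Pou5f1 in this step. Mesoderm minus streak it had -0.22 ± 0.28 in Evx1as-/- (adjusted p = 0.651) and 0.10 ± 0.58 in Evx1as+/- sections (adjusted p = 0.960), and it was lower in 4 of 7 pairs. Relative to Pou5f1 it stood at 9.22% to 18.8% in Evx1as-/- mesoderm and 3.44% to 15.5% in Evx1as-/- streak, with medians of 12.8% in mesoderm and 4.22% in streak. In Evx1as+/- sections it stood at 4.66% to 16.6% in mesoderm and 1.45% to 6.11% in streak. Pou3f1 was lower in mesoderm in 5 of 7 pairs and had -0.36 ± 0.40 in Evx1as-/- sections (adjusted p = 0.597). The genes of the list that fell with Pou5f1 in Evx1as-/- sections were Cdh1 (-1.74) and Dnmt3b (-1.55), both lost after scaling. In Evx1as+/- sections Cdh1 (-3.55) fell, also lost after scaling.

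Along the layer numbers, no factor had a slope that passed the test. Utf1 in streak came nearest, at -0.19 ± 0.04 log2 units per layer number (adjusted p = 0.0983), where 8 of 9932 genes passed (0.0805%). Without layer 1, where the Evx1as-/- section had 18.7 FPKM against 3.57 to 7.33 FPKM in the other Evx1as-/- layers, it was also -0.19 (adjusted p = 0.708). Pou5f1 in streak had -0.06 ± 0.04 (adjusted p = 0.476). In mesoderm the slopes were -0.29 ± 0.08 for Pou3f1 (adjusted p = 0.717), -0.16 ± 0.06 for Utf1 and -0.14 ± 0.07 for Pou5f1 (both adjusted p = 0.968), where 1 of 8695 genes passed (0.0115%). Pou3f1 in Evx1as-/- mesoderm ran down from 4.16 FPKM at layer 3 to 0.0941 FPKM at layer 9. One epiblast gene, Fgf5, a growth factor of the primed epiblast, passed in streak with a slope of -0.41 (adjusted p = 0.00473).

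Within a region, with both genotypes pooled, Pou5f1 and Utf1 varied together. Both genes were higher in Evx1as-/- sections, and the part of that difference in their correlation was not tested. As a description over sections that may share embryos, Pearson's r of log2(FPKM + 1) was 0.79 in the 11 streak and 0.84 in the 8 mesoderm sections. Pou3f1 and Foxd3 had r = 0.87 in mesoderm and 0.13 in streak, where Foxd3 was almost always at 0. Over all 24 sections, the genes most like Pou5f1 among 2651 with a mean of at least 5 FPKM were Gng3 (r = 0.90), Igfbp2 (0.90) and Sdhd (0.90), and r was 0.90 to 0.91 without the anterior libraries. Those most like Pou3f1 were Slc7a3 (0.76), Hmgcs1 (0.76) and Phc1 (0.74). Those most like Utf1 were Hmgcs1 (0.86), Slc7a3 (0.73) and Acsl4 (0.73), and like Foxd3 Slc7a3 (0.75), Phc1 (0.71) and Hmgcs1 (0.64). Slc7a3, a cationic amino acid transporter, was at 28.6 to 48.8 FPKM in anterior epiblast and at most 6.67 FPKM in streak. Without the anterior libraries its r fell to 0.38 with Pou3f1, 0.41 with Utf1 and 0.26 with Foxd3, so these likenesses rest largely on those 2 libraries.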

How the data were processed

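Libraries of 6 cultures and 24 laser-captured sections were used, each with 1 deposited table, and 4 posterior pieces are not analysed here. The authors deposited FPKM per gene with an interval, in the layout of Cufflinks. Per the submitters' processing notes CASAVA, TopHat2 2.0.11 and mm10 were used, and the version of the quantifier is not given in the sources used here. Per the labels' protocols the kit is stranded, while strand use in counting is not given. Without counts, depth is unknown and no counting intervals are possible. The number of libraries limits precision.

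Rows of 1 identifier were added, values under 1e-06 set to 0, and genes averaging 1 FPKM or more were analysed as log2(FPKM + 1) with limma 3.58.1 in R 4.3.3 (trended prior, two-sided, Benjamini-Hochberg over all genes tested, threshold 0.05), tested on simulated data. Fold changes on this scale understate the change of low genes. Scaled values divide each library by its median ratio to the geometric mean library. Means ± are SD, differences ± are SE. Named genes are the 4 factors, up to 3 called members per list, all members of lists of at most 6, the 3 genes most like each factor, overlapping genes, Evx1as and Evx1. Sox2, Cdh1, Nanog, Pou2f2, T and markers of other cells were also named where they did not meet that rule, after their values were seen. The members and lists were chosen with earlier results of these data known. Alternatives were the scaling, pseudocount, filter, layer term, lane, conflicting sections and leaving out each library. One gene of the epiblast list is counted but not reported here by name.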

Additional observations from a re-analysis of the deposited data

Results flagged for a closer look

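Of 11 groups of 4 to 10 sections in which a factor could be tested for a single section far from the rest, 3 held one. The rule flags about 1 in 20 when values are normally spread. It was applied to FPKM without a log scale, and many are listed at 0, so the count cannot be set against that rate. Utf1 in Evx1as-/- streak was at 18.7 FPKM in layer 1, where the other 4 sections had 3.57 to 7.33 FPKM, and the gap took 0.751 of the range (critical value 0.710). Foxd3 in Evx1as-/- streak was at 0.275 FPKM in layer 5, where the others had 0 to 0.0703 FPKM. Foxd3 in Evx1as-/- mesoderm was at 1.52 FPKM in layer 3, where the others had 0 to 0.359 FPKM. With so many sections listed at 0, the range of Foxd3 is set by 1 or 2 sections.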

How the results depend on the processing

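Of 451 values of the factors under alternatives, 425 kept their direction and side of the threshold, 14 lost the call, 1 gained it and 11 changed sign. Pou5f1 and Utf1 over both regions were called under all 28 alternatives each. In cultures, Pou5f1 lost its call with lane L3 only (0.54), while leaving out a library gave adjusted p of 0.00991 to 0.0460. The labels do not say whether shared replicate numbers pair the cultures. Same-number correlations of deviations were -0.117, -0.053 and -0.051, but with 3 cultures per line such values cannot decide it. With the replicate block the 4 differences (0.61, 1.18, 2.14 and 3.80) cannot change, because every number occurs in both lines. All 4 were still called, and 3166 genes were called in place of 4256. With layer as a replicate block, Pou5f1 (1.22) and Utf1 (1.33) kept their calls over both regions.

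In mesoderm between genotypes, Pou5f1 gained a call with the conflicting Evx1as+/- sections counted by title (1.35). Pou3f1 turned to 0.48 with layer left out and 0.32 with those sections, and ran from -0.33 to 0.044 leaving out 1 section. Mesoderm minus streak in Evx1as-/-, Pou5f1 lost its call without the filter (-1.83) and had -1.97, -1.95, -1.84 or -1.55 leaving out 1 section, each without its call, while Utf1 turned to 0.18 after scaling and ran from -0.39 to 0.022. In Evx1as+/-, Utf1 ran from -0.18 to 0.39. The interaction of Pou3f1 ran from -0.40 to 0.084, with 0.020 as the other positive value. Anterior minus streak, Pou5f1 turned to 0.27 after scaling, Pou3f1 lost its call with only streak layers 5 and 7 (2.53) and ran from 2.19 to 3.16, and Utf1 from 3.20 to 3.51. The cause was not tested for these changes.

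Counts of genes called moved more. Over both regions 119 genes became 43 to 577 leaving out 1 section, 818 with conflicting sections by title, 835 by cell type label, 192 at 5 FPKM and 19 unfiltered. In streak 2 became 0 to 9, in mesoderm 17 became 0 to 227, in the lane L3 cultures 4256 became 908. Mesoderm minus streak 61 (Evx1as-/-) became 3 to 325 and 20 (Evx1as+/-) 0 to 5, and anterior minus streak 40 became 6 to 183. After scaling, higher and lower calls over both regions were 94 and 71 in place of 108 and 11.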

Other observations

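The 3 sections with conflicting labels carried these levels. The Evx1as-/- section titled as streak and labelled mesoderm, layer 3, had 102 FPKM of Pou5f1, 2.78 of Pou3f1, 16.3 of Utf1 and 0.895 of Foxd3, with T at 39.8 FPKM. An Evx1as+/- section titled as mesoderm layer 3 and labelled streak layer 5 had 17.9 FPKM of Pou5f1, 0.0883 of Pou3f1, 1.24 of Utf1 and 0 of Foxd3. The other Evx1as+/- section, titled as mesoderm and labelled streak, layer 7, had 18.9 FPKM of Pou5f1, 1.95 of Pou3f1, 6.43 of Utf1 and 0 of Foxd3. In these Evx1as+/- sections T was at 8.34 FPKM in one and 21.0 FPKM in the other.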
